A study of Mus musculus with 8 samples.

Results

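Genes of peroxisome biogenesis and lipid breakdown, 36 in all, were described in lung macrophages with and without Pparg deletion. They were listed by function, but with earlier results of these data known, so counts over them are only descriptive. Probe sets with a single gene symbol represented 34 of the 36 among the 18782 genes measured, namely all 13 Pex genes and 21 of 23 enzymes and transporters. Acot8 and Prdx5 had no such probe set and were not analysed here. Where a gene had several probe sets, the brightest by its mean of all 8 arrays stood for it.

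Peroxisomes are organelles bounded by a single membrane that shorten very long, branched and dicarboxylic fatty acids, make the first steps of ether lipids and break down hydrogen peroxide. They hold no DNA: peroxins, the products of the Pex genes, bring membrane proteins and folded enzymes into them, and new peroxisomes also form by division of old ones. Several genes of peroxisomal fatty acid breakdown are classic targets of PPAR receptors, the nuclear receptors named after the growth of peroxisomes. Alveolar macrophages, which take up the lipid-rich surfactant of the lung, depend on the family member PPARγ for their development.

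The 4 groups of 2 arrays crossed genotype with age on a C57BL/6 background. Controls were PPARg fl/fl mice, which carry loxP-flanked Pparg without a recombinase. Knockouts were CD11cCre/PPARg fl/fl mice, in which Cre is driven by the CD11c promoter and acts in every CD11c-expressing cell, dendritic cells included. Each array held cells sorted from the lungs of 2 pooled mice, so the p-values rest on spread between pools. That spread was estimated for each gene over all 4 groups together, not from the 2 groups compared. Day 2 cells were live CD45+ F4/80+ cells high in CD11c, from a gate with intermediate Siglec-F and CD11b or a gate with low Siglec-F and high CD11b. Day 11 cells were CD45+, Siglec-F+, high in CD11c and in autofluorescence, with low CD11b for controls and high CD11b for knockouts. The sample descriptions call the controls precursors at day 2 and mature cells at day 11, and the knockouts arrested precursors at both ages, while the titles name all day 11 samples AM. Gate and deletion therefore cannot be told apart at day 11, and which genotype came from which day 2 gate is not stated in the labels. In such sorted bulk RNA, fewer cells of a type and less RNA per cell cannot be told apart either.

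Signals are log2 values, so a difference of 1 is a 2-fold change, genotype differences are knockout minus control, and arrays of one group correlated across genes at r = 0.994 to 0.998. Cd68 (12.12 to 12.25), Lyz2 (12.15 to 12.36) and Car4 (11.88 to 12.24), markers of macrophages and of alveolar macrophages, were high on all 8 arrays. Of 7 markers of macrophages and leukocytes in general, 3 were higher and 1 lower in knockouts at day 2, and 2 were higher and 2 lower at day 11. Csf1r (1.03 and 0.43 at day 2 and day 11) and Adgre1 (0.53 and 0.28) were higher at both ages and Mertk (-0.81 and -0.74) was lower. None of 3 eosinophil markers was called by limma at either age (Epx 3.50 to 3.77). Of 3 T and NK cell markers Cd3e was higher at both ages (0.58, adjusted p = 0.00168, and 0.36, adjusted p = 0.0174), but dim (4.87 to 5.53). Cd3g (3.37 to 3.96) and Ncr1 (3.52 to 3.84) were dim too and not called. Of 2 B cell markers Ms4a1, also dim (3.86 to 4.68), was lower at day 11 (-0.46, adjusted p = 0.0467). The targeted gene Pparg read 10.89 and 11.01 for control pools of day 2, 10.55 and 10.74 for their knockout counterparts, 11.18 and 11.13 for control pools of day 11 and 11.32 and 11.36 for day 11 knockout pools. On day 2 the difference was -0.30 ± 0.08 (adjusted p = 0.0346), and on day 11 it came to 0.18 ± 0.08 (adjusted p = 0.183). Leaving out any array but knockout day 2 replicate 2 ended the day 2 call (adjusted p from 0.052 to 0.191). Where its probes lie relative to the deleted part is not given, so it does not check the labels. Of 9 alveolar macrophage markers, 7 were lower and 1 higher in knockouts at day 2, and 6 lower and 1 higher at day 11. Their summed level, the log2 of the added signals, was 13.80 to 13.81 in controls against 13.01 to 13.21 in knockouts at day 2, and 14.47 to 14.48 against 13.69 to 13.87 at day 11. In knockouts Car4, Mrc1 and Itgax made up most of this sum. Far lower were Marco (-3.52 and -3.77), Krt79 (-4.25 and -5.33), Krt19 (-5.02 and -3.88), Fabp4 (-2.91 and -3.18) and Siglecf (-2.58 and -2.02). Chil3 (-2.20 and -0.57, the latter not called) and Mrc1 (-0.495 and -0.405) were lower too. Itgax was higher (0.30 and 0.29) and Car4 was not called. Markers of monocytes moved the other way, 4 of 4 being higher at each age (sum 12.12 to 12.16 against 13.25 to 13.25 at day 2, and 11.85 to 11.88 against 12.85 to 12.86 at day 11). Itgam, 1 of the 4, encodes CD11b, and day 11 knockouts were sorted high for CD11b but controls low. Its day 11 difference (4.49), which enters the sum, cannot be told apart from the gate. Ccr2, Cx3cr1 and Fn1 are not among the sort markers named and were higher at day 11 by 2.25, 1.36 and 0.56. Siglecf, Itgax, Adgre1 and Ptprc also encode sort markers, so their differences may depend on the gates too. Of 7 neutrophil markers, 5 were higher and 1 lower at day 2 (sum 9.11 to 9.14 against 11.13 to 11.27), and 2 were higher and 1 lower at day 11 (9.07 to 9.31 against 11.33 to 11.37). Mmp8 made up most of this sum in knockouts (10.50 to 11.09). Of 6 dendritic cell markers, 4 were higher at day 2 (7.92 to 8.08 against 9.94 to 10.31) and 1, Clec9a, at day 11 (8.17 to 8.19 against 9.36 to 9.76). Clec9a alone made up most of the day 11 knockout sum (8.78 and 9.28). Of 6 epithelial markers, Scgb1a1 was lower in knockouts at both ages and Epcam at day 11, with sums of 10.87 to 10.95 against 10.67 to 11.01 at day 2 and 10.89 to 11.15 against 10.69 to 10.89 at day 11. Of 3 endothelial markers, 2 were higher at day 2 (7.76 to 7.82 against 8.59 to 8.60). These shifts run alongside every genotype difference given here, and their part in it was not tested. Knockout day 2 replicate 1 stood apart by its interferon response genes, whose summed level was 12.28 against 8.67 in replicate 2 and at most 8.25 on the other arrays. The pools also differed in sex mix, Xist being 3.38 in control day 2 replicate 2 and 3.46 in knockout day 11 replicate 1 but 9.85 to 10.68 elsewhere, and the Y-linked Eif2s3y being 4.05 in knockout day 2 replicate 1 but 6.92 to 9.06 elsewhere.

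The first question was how far each arm of the set moved with genotype. Most enzymes and transporters were lower in knockouts at day 2, as were 7 of 21 at day 11, while Pex11a and Pex16 were lower by more than 2-fold and the other Pex genes lay within 0.6 of 0 at both ages. Genes count as called here where the p adjusted over all 18782 genes fell under 0.05. At day 2, 13 of 21 enzymes and transporters were called (61.9%), 12 lower and 1 higher, against 20.1% of all genes (11.2% lower and 8.86% higher). Of 13 Pex genes, 3 were called (23.1%), all lower, a share near that of all genes. At day 11, 8 of 21 enzymes and transporters were called (38.1%), 7 lower and 1 higher, and 7 of 13 Pex genes (53.8%), 4 lower and 3 higher, against 18.6% of all genes (9.29% lower and 9.34% higher). The median difference of the enzymes was -0.27 at day 2 and -0.12 at day 11, that of the Pex genes -0.15 and -0.21, and that of all genes -0.03 and -0.00. Dim genes are seldom called, so the comparison was repeated over the 9502 genes with a mean of at least 6 in some group. There 14 of 20 enzymes (70%) and 3 of 11 Pex genes (27.3%) were called at day 2 against 38.2% of genes, and 9 of 20 (45%) and 6 of 11 (54.5%) at day 11 against 36.8%. Among these brighter genes the enzyme share at day 11 and the Pex share at day 2 were thus near or under the background. Acot4 passed this filter only through its controls (means 6.00 and 6.48) and Amacr only through the day 11 knockouts (6.32). Both count among the enzymes called at day 11, and Acot4 also at day 2, so the filter was not independent of their differences. Pex14, Pex16, Pex11a, Acox3, Ehhadh, Hsd17b4, Acaa1a, Acaa1b and Acot4, 9 of 34 members, were lower at both ages, against 6.04% of all genes. The 2 ages had no array in common but shared the same estimate of the spread for each gene, so their calls are not independent. This share was not computed over the brighter genes alone. The day 2 enzyme count was 8 without knockout day 2 replicate 1, 8 without control day 2 replicate 2 and 8 with a term for sex mix, all lower. The day 11 Pex count was 4 without control day 11 replicate 1 or knockout day 11 replicate 2.

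**Figure D1:**
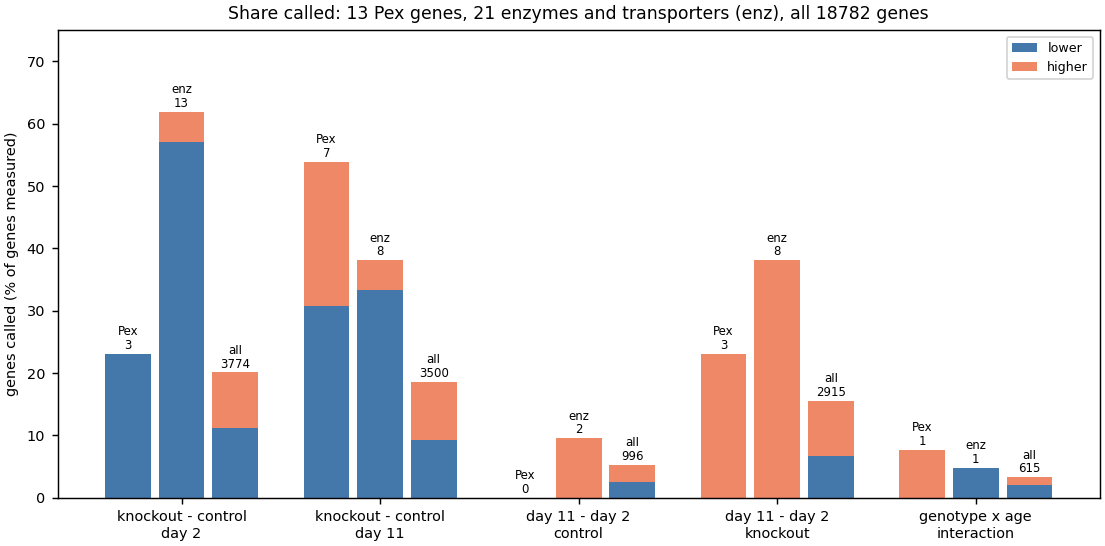
Share of genes called at an adjusted p under 0.05 (vertical axis, percent of genes measured) in 5 comparisons, for the 13 Pex genes, the 21 enzymes and transporters and all genes, split into lower (blue) and higher (orange), with the number called above each bar. Enzymes reached 61.9% at day 2 against 20.1% of all genes, and Pex genes 53.8% at day 11 against 18.6%.

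Beta-oxidation, the cycle that removes carbon pairs from an acyl chain, held the widest single genotype difference. Of its 7 genes, 5 were lower at both ages and Amacr was higher at day 11. That widest difference was in Acaa1b, which encodes a thiolase, the enzyme of the last step. Its signal was 7.87 and 7.87 for control pools of day 2, 4.89 and 4.25 for their knockout counterparts, 8.45 and 8.60 for control pools of day 11 and 4.50 and 4.78 for day 11 knockout pools. Every knockout array lay below every control array, at a difference of -3.30 ± 0.19 (9.85-fold lower, adjusted p = 2.43e-05) at day 2 and -3.88 ± 0.19 (14.8-fold lower, adjusted p = 1.57e-05) at day 11. Errors are standard errors for 2 arrays a group, with the spread of each gene estimated over all 8 arrays. The knockout signals lay under the array median of 5.35, where a probe set may measure mostly background, and the table gives no detection calls, so these folds may be lower bounds. Acaa1a, its close paralogue on the same chromosome, gave 8.04 and 8.12 for control pools of day 2, 7.35 and 7.06 for their knockout counterparts, 7.92 and 7.90 for control pools of day 11 and 6.94 and 7.01 for day 11 knockout pools. The groups did not overlap here either, but the differences were smaller, -0.87 ± 0.10 (adjusted p = 0.000557) on day 2 and, on day 11, -0.93 ± 0.10 (adjusted p = 0.000421). Probe sets of near-identical copies can share signal, so how far each gene moved on its own is uncertain.

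Ehhadh encodes the bifunctional enzyme of the middle steps for straight-chain and dicarboxylic substrates. It read 7.27 and 7.38 for control pools of day 2, 6.08 and 6.28 for their knockout counterparts, 7.88 and 7.69 for control pools of day 11 and 6.77 and 7.16 for day 11 knockout pools, and the knockouts lay below the controls of their age, the difference being -1.14 ± 0.14 (adjusted p = 0.000791) on day 2 and, on day 11, -0.82 ± 0.14 (adjusted p = 0.00432). Hsd17b4, the D-bifunctional protein that runs the same steps for very long and branched chains, read 9.86 and 9.79 for control pools of day 2, 8.90 and 8.94 for their knockout counterparts, 10.31 and 10.20 for control pools of day 11 and 8.86 and 8.82 for day 11 knockout pools. Its knockout values all lay within 8.82 to 8.94, below every control, and the difference was -0.91 ± 0.07 (adjusted p = 7.94e-05) on day 2 and, on day 11, -1.42 ± 0.07 (adjusted p = 1.35e-05). Acox3, an oxidase of the first step for branched chains, read 10.42 and 10.44 for control pools of day 2, 9.58 and 9.81 for their knockout counterparts, 10.53 and 10.42 for control pools of day 11 and 10.05 and 9.83 for day 11 knockout pools. The day 2 difference was -0.73 ± 0.10 (adjusted p = 0.00174) and the day 11 difference -0.54 ± 0.10 (adjusted p = 0.00853). A second, dim Acox3 probe set disagreed (-0.22 and 0.04), and averaging both gave -0.48 and -0.25. The day 11 call of Acox3 was lost without control day 11 replicate 1 (0.0688) or without knockout day 11 replicate 2 (0.0538), where parentheses after a left-out array give the adjusted p without it.

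The remaining members of this group parted, Amacr lying higher in knockouts and Scp2 lower but not called in the main fit. Amacr, the racemase that turns branched acyl-CoAs into the form that can be oxidised, read 5.61 and 5.60 for control pools of day 2, 5.83 and 5.91 for their knockout counterparts, 5.82 and 5.61 for control pools of day 11 and 6.39 and 6.24 for day 11 knockout pools. Its knockout arrays lay above the controls at both ages, with 0.60 ± 0.09 (adjusted p = 0.00235) at day 11 and no call at day 2 (0.26, adjusted p = 0.0758). Scp2, whose longer product is a thiolase for branched chains, was not called (-0.33, adjusted p = 0.06, and -0.29, adjusted p = 0.101), though it was at day 2 over the brighter genes alone (adjusted p = 0.0452) and without control day 2 replicate 1 (adjusted p = 0.0434). Apart from Acox3 at day 11, each beta-oxidation call named above was kept in every alternative setting tried.

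**Figure D2:**
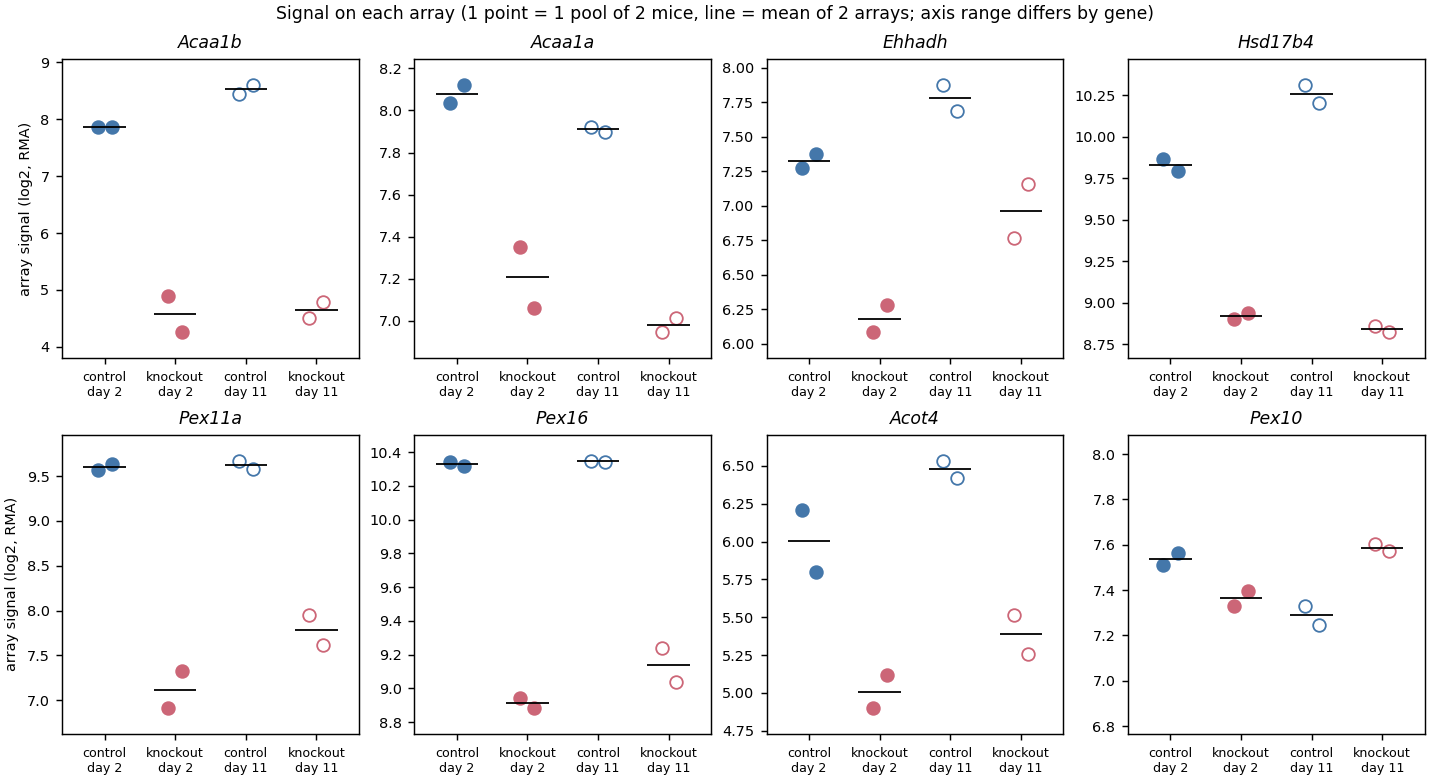
Array signal (vertical axis, log2, range differing by gene) of 8 members in the 4 groups (horizontal axis), controls in blue and knockouts in red, day 2 filled and day 11 open; each point is 1 array and each line the mean of 2. Acaa1b lay between 7.87 and 8.60 in controls and between 4.25 and 4.89 in knockouts. Pex10 read lower in knockouts at day 2, where it was not called, and higher at day 11, where it was. Its interaction call was not kept in every setting.

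The members of the widest differences can be set beside the sequence just upstream of their starts. PPARγ binds DNA together with RXR at direct repeats of AGGTCA with a single base between them. The 250 bases upstream of 6 genes are shown 5′ to 3′ on the gene's own strand, from RefSeq on GRCm38.p6: the paralogues Acaa1b and Acaa1a, and Pex11a, Pex16 (the first of 2 starts), Ehhadh and Acot4, which all passed a 2-fold difference except Acaa1a. Hsd17b4, which also passed it, is not shown. Capitals mark AGGNCA on either strand, the repeat unit with its T left free.
Acaa1b (chr9:119157094-119157343, minus strand): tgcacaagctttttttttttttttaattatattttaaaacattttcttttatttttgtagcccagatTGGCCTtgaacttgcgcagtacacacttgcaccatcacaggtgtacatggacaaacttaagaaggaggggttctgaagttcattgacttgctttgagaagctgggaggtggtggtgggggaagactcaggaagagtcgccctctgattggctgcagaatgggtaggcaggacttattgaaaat
Acaa1a (chr9:119341044-119341293, plus strand): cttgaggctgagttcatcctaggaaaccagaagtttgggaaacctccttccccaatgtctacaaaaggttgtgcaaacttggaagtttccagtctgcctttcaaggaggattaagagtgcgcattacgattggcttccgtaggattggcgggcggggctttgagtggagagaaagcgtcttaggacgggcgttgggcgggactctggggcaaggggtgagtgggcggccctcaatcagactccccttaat
Pex11a (chr7:79743132-79743381, minus strand): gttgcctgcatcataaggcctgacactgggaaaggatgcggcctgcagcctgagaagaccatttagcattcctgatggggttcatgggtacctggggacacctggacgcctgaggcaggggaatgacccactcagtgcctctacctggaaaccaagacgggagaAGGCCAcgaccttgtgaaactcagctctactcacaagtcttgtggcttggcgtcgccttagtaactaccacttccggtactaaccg
Pex16 (chr2:92374426-92374675, plus strand): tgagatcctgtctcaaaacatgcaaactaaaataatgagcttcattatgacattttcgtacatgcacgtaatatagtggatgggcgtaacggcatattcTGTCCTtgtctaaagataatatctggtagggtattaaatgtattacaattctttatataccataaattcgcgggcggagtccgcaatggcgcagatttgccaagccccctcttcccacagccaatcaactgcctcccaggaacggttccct
Ehhadh (chr16:21787835-21788084, minus strand): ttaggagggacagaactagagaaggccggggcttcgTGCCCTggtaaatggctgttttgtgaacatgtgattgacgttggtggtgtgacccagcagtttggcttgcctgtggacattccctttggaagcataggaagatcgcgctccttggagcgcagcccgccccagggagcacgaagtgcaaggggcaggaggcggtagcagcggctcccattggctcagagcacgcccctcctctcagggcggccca
Acot4 (chr12:84038129-84038378, plus strand): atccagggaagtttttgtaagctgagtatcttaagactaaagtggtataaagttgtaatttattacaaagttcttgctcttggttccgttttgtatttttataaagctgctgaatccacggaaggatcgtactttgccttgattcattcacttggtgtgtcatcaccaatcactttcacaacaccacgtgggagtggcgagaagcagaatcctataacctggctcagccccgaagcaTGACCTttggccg
Each window but that of Acaa1a held a single AGGNCA, and only that of Acot4 held the full AGGTCA, on the minus strand. The 31 members with an entry had 35 such windows. AGGNCA lay in 18 of the 35, against 51.3% of all 32851 windows, and AGGTCA in 5 of the 35, against 14%. The full repeat AGGTCANAGGTCA was in none of the 35 and in 0.0335% of all windows, and AGGNCANAGGNCA in none and in 0.338%. All motifs were searched on both strands, and the shorter ones are contained in the longer. A match is only a description of these letters.

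Pex genes fall into groups by their step in building the organelle. Pex11a, which elongates and helps divide peroxisomes, read 9.57 and 9.63 for control pools of day 2, 6.92 and 7.32 for their knockout counterparts, 9.67 and 9.58 for control pools of day 11 and 7.95 and 7.61 for day 11 knockout pools. Controls stayed within 9.57 to 9.67, and all knockout arrays lay below them, at a difference of -2.48 ± 0.15 (5.59-fold lower, adjusted p = 3.04e-05) at day 2 and -1.84 ± 0.15 (3.59-fold lower, adjusted p = 0.000129) at day 11. Its relative Pex11g was dim (5.39 to 5.87 on the 8 arrays) and was not called (-0.15, adjusted p = 0.293, and -0.21, adjusted p = 0.159).

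Membrane assembly rests on Pex3, Pex16 and Pex19, which bring membrane proteins to the organelle. Pex16 read 10.34 and 10.32 for control pools of day 2, 8.94 and 8.88 for their knockout counterparts, 10.35 and 10.34 for control pools of day 11 and 9.24 and 9.04 for day 11 knockout pools. The difference was -1.42 ± 0.08 (adjusted p = 2.14e-05), or 2.67-fold, at day 2 and -1.21 ± 0.08 (adjusted p = 4.92e-05), or 2.31-fold, at day 11, with no overlap between genotypes. Pex3, the docking partner of Pex19, differed by -0.04 and 0.02, and Pex19, the carrier of membrane proteins, by 0.02 and 0.13, none of these called.

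Matrix enzymes enter by a separate route. Pex14, which forms the docking site for import receptors, read 8.42 and 8.48 for control pools of day 2, 7.77 and 7.99 for their knockout counterparts, 8.51 and 8.56 for control pools of day 11 and 8.19 and 8.09 for day 11 knockout pools. It was lower in knockouts, the difference being -0.57 ± 0.08 (adjusted p = 0.00229) on day 2 and, on day 11, -0.40 ± 0.08 (adjusted p = 0.0144). The latter call was lost without control day 11 replicate 1 (0.0629), without control day 11 replicate 2 (0.0857) or without knockout day 11 replicate 2 (0.0871). Its partner Pex13 was not called (-0.28, adjusted p = 0.0882, and -0.31, adjusted p = 0.0705). The receptors themselves parted at day 11: Pex5, which binds the common targeting signal at the end of enzymes, was higher by 0.35 ± 0.07 (adjusted p = 0.00776), and Pex7, which binds the rarer signal near their start, was lower (-0.54 ± 0.10, adjusted p = 0.00675). On the day 11 arrays Pex5 read 6.95 and 7.07 in controls but 7.38 and 7.34 in knockouts, and Pex7 read 7.63 and 7.61 in controls but 7.14 and 7.01 in knockouts. Neither was called at day 2 (0.10 and -0.14). Without control day 11 replicate 1 both day 11 calls were lost (adjusted p = 0.0614 and 0.0509).

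Receptors return to the cytosol after Pex2 and Pex10 attach ubiquitin and the ATPase Pex6, anchored by Pex26, pulls them out. Pex10 read 7.51 and 7.56 for control pools of day 2, 7.33 and 7.40 for their knockout counterparts, 7.33 and 7.25 for control pools of day 11 and 7.60 and 7.57 for day 11 knockout pools. The knockouts lay below the controls at day 2 (-0.17 ± 0.06, adjusted p = 0.105, not called) and above them at day 11 (0.30 ± 0.06, adjusted p = 0.0143). Pex26 was dim and higher at day 11 by 0.28 ± 0.06 (adjusted p = 0.0164). Both day 11 calls depended on single arrays, that of Pex10 being lost without control day 11 replicate 2 (0.0916), without knockout day 11 replicate 1 (0.0731) or without knockout day 11 replicate 2 (0.0534) and that of Pex26 without control day 11 replicate 1 (0.0813), without control day 11 replicate 2 (0.0799) or without knockout day 11 replicate 2 (0.0985). Pex2 (-0.21 and -0.24) and Pex6 (-0.12 and -0.04) were not called at either age. In all, Pex13, Pex2, Pex6, Pex3, Pex19 and Pex11g, 6 of 13, were called at neither age, although Pex13 was at day 11 without control day 11 replicate 2 (adjusted p = 0.0455) and Pex2 without control day 11 replicate 1 (0.0462).

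**Figure D3:**
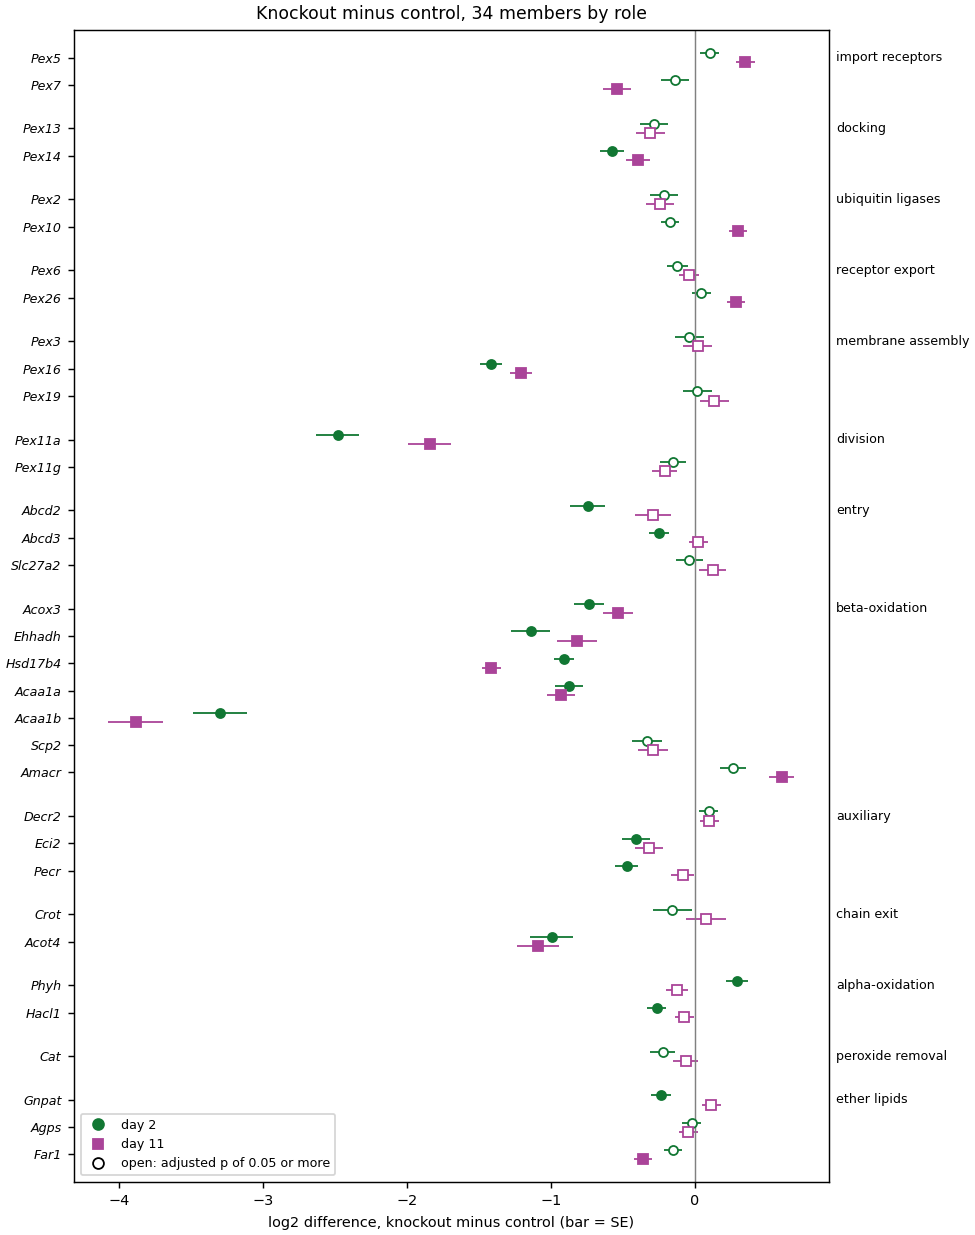
Log2 difference of knockout minus control (horizontal axis, bars are SE) for the 34 members, grouped by role, at day 2 (green circles) and day 11 (purple squares), open where not called. Acaa1b and Pex11a lie farthest to the left at both ages, followed by Pex16 at day 2 and Hsd17b4 at day 11, and the other Pex genes lie within 0.6 of 0.

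Transporters and the enzymes around the cycle followed. Abcd2 and Abcd3 carry acyl-CoAs into the peroxisome. Abcd2 read 10.98 and 10.93 for control pools of day 2, 10.01 and 10.41 for their knockout counterparts, 11.14 and 11.03 for control pools of day 11 and 10.74 and 10.85 for day 11 knockout pools. It was lower at day 2 (-0.74 ± 0.12, adjusted p = 0.00396), and at day 11 the difference of -0.29 was not called (adjusted p = 0.166), although leaving out either day 2 knockout array gave adjusted p = 0.031. Abcd3 was lower at day 2 (-0.25 ± 0.07, adjusted p = 0.0361) and differed by 0.02 at day 11 (adjusted p = 0.885). Leaving out any array except a day 11 knockout ended its day 2 call (adjusted p from 0.0613 to 0.158), as well as with day 2 arrays alone or the sex term. Slc27a2, an acyl-CoA synthetase, was dim at 3.78 to 4.02 and was not called. Pecr reduces a double bond of acyl-CoAs, and Eci2 shifts double bonds so that unsaturated chains can enter the cycle. Both genes were lower at day 2, Pecr at -0.48 ± 0.08 (adjusted p = 0.00459) and Eci2 at -0.41 ± 0.10 (adjusted p = 0.0213). At day 11 Pecr differed by -0.09 (adjusted p = 0.575) and Eci2 by -0.32 (adjusted p = 0.0564). The Eci2 call at day 2 was lost without control day 2 replicate 1 (0.0666), without control day 2 replicate 2 (0.128) or without knockout day 2 replicate 1 (0.103) and with the sex term. The day 11 difference of Eci2 was called in 6 other settings, at adjusted p from 0.0223 to 0.0489. Decr2, a reductase for unsaturated chains, was not called (0.10 and 0.10).

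Shortened chains leave as carnitine esters made by Crot or as free acids released by thioesterases such as Acot4. Acot4 read 6.21 and 5.80 for control pools of day 2, 4.90 and 5.12 for their knockout counterparts, 6.54 and 6.42 for control pools of day 11 and 5.52 and 5.25 for day 11 knockout pools. All knockout arrays lay below all controls, with -0.996 ± 0.15 (adjusted p = 0.00236) on day 2 and, on day 11, -1.09 ± 0.15 (adjusted p = 0.0016). The knockout signals were all under 6, the limit for dim genes used here, so these differences too may be lower bounds. Crot showed no genotype call (-0.16 and 0.08). Probes of Acot4 may share signal with its neighbours of the same family, which are near-identical copies.

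Alpha-oxidation, which removes single carbons from branched chains such as phytanic acid, gave small differences in opposite directions at day 2. Phyh, its hydroxylase, was higher by 0.29 ± 0.08 (adjusted p = 0.034) and Hacl1, its lyase, lower (-0.27 ± 0.07, adjusted p = 0.0249). Neither was called at day 11 (-0.12 and -0.07). The Phyh call was lost without each array in turn except knockout day 2 replicate 2 (adjusted p from 0.0505 to 0.162). The Hacl1 call was lost without control day 2 replicate 1 (0.132), without control day 2 replicate 2 (0.0691) or without knockout day 2 replicate 1 (0.121), and in 3 other settings. Of the ether lipid genes, Gnpat, the acyltransferase of the first step, was lower at day 2 (-0.23 ± 0.07, adjusted p = 0.0456), a call lost without any single array (adjusted p from 0.0585 to 0.219). Far1, which makes the fatty alcohol for the ether bond, was lower at day 11 (-0.36 ± 0.06, adjusted p = 0.0056), reading 9.72 and 9.75 in controls and 9.35 and 9.40 in knockouts. Agps, the alkyl synthase that follows Gnpat, differed by -0.02 and -0.05. Cat, the catalase that breaks down the hydrogen peroxide made by the oxidases, read 10.83 and 10.89 for control pools of day 2, 10.52 and 10.75 for their knockout counterparts, 10.86 and 10.98 for control pools of day 11 and 10.87 and 10.84 for day 11 knockout pools. It was not called at either age (-0.23, adjusted p = 0.124, and -0.07, adjusted p = 0.716), except at day 2 without knockout day 2 replicate 2 (adjusted p = 0.0334).

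The ages could then be compared within each genotype, keeping in mind that the sort gates changed with age too. In controls few of these genes were called between day 2 and day 11. No Pex gene was called by limma (3 of 13 had an unadjusted p under 0.05), and 2 of 21 enzymes were, against 5.3% of all genes. Over the brighter genes 0 of 11 Pex genes and 2 of 20 enzymes (10%) were called, against 10.8%. Hsd17b4 was higher at day 11 by 0.43 ± 0.07 (adjusted p = 0.0121) and Phyh by 0.36 ± 0.08 (adjusted p = 0.0387). Both depended on single arrays, Hsd17b4 losing its call without control day 2 replicate 1 (0.069), without control day 2 replicate 2 (0.0926) or without control day 11 replicate 1 (0.098) and Phyh without any array other than the day 2 knockouts (adjusted p from 0.0578 to 0.205). The enzyme count of 2 became 0 without either day 2 control or control day 11 replicate 1 (3 to 5 at an unadjusted p under 0.05). Acaa1b differed by 0.66 (adjusted p = 0.0924) and Ehhadh by 0.46 (adjusted p = 0.101). Both were called when only the control arrays were fitted (adjusted p = 0.00475 and 0.0255). Acaa1b was also called without either day 2 knockout (adjusted p = 0.013) or with the sex term (0.0148), and Ehhadh without either day 11 knockout (0.0487).

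In knockouts, all 11 members called between the ages were higher at day 11, 3 of 13 Pex genes (23.1%) and 8 of 21 enzymes and transporters (38.1%), against 15.5% of all genes (8.81% higher). Over the brighter genes the shares were 27.3% and 40% against 30.2%, the 40% including Amacr, which passed that filter only through its day 11 knockout mean. The 11 differences ranged from 0.25 to 0.78. Ehhadh rose by 0.78 ± 0.14 (adjusted p = 0.00814), Pex11a by 0.66 ± 0.15 (adjusted p = 0.0215), Pecr by 0.61 ± 0.08 (adjusted p = 0.00263), Crot by 0.59 ± 0.14 (adjusted p = 0.0243), Abcd2 by 0.58 ± 0.12 (adjusted p = 0.0173), Amacr by 0.45 ± 0.09 (adjusted p = 0.0131), Gnpat by 0.42 ± 0.07 (adjusted p = 0.00598) and Abcd3 by 0.34 ± 0.07 (adjusted p = 0.0136). Hacl1 (0.27), Pex5 (0.25) and Pex26 (0.25) made up the rest. Pecr and Gnpat kept their calls in every setting, and Ehhadh in all but the sex term (adjusted p = 0.0554). Acaa1b, Acaa1a and Hsd17b4 showed no call in knockouts (0.07, -0.23 and -0.08), although Acaa1a was called without knockout day 2 replicate 2 (adjusted p = 0.0228).

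The knockout age counts rested on single libraries. The enzyme count was 4 without knockout day 2 replicate 1, 5 without knockout day 11 replicate 1 and 5 without knockout day 11 replicate 2. The Pex count was 0 without knockout day 2 replicate 1 or knockout day 11 replicate 1 by limma, with 6 and 6 at an unadjusted p under 0.05. Pex11a lost its call without knockout day 2 replicate 1 (0.0876) or without knockout day 11 replicate 1 (0.106). Abcd2 lost its call without knockout day 11 replicate 2 (0.095), Abcd3 without knockout day 2 replicate 1 (0.07) or without knockout day 11 replicate 2 (0.0796), Amacr without knockout day 2 replicate 1 (0.066) or without knockout day 11 replicate 1 (0.0698) and Crot without knockout day 2 replicate 1 (0.0512), without knockout day 2 replicate 2 (0.0845), without knockout day 11 replicate 1 (0.0698) or without knockout day 11 replicate 2 (0.117). Hacl1 lost it without each array in turn except knockout day 2 replicate 2 (adjusted p from 0.0506 to 0.156), and Pex5 without any array other than the day 11 controls (adjusted p from 0.0659 to 0.156). Pex26 lost it without any single array (adjusted p from 0.0541 to 0.169).

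**Figure D4:**
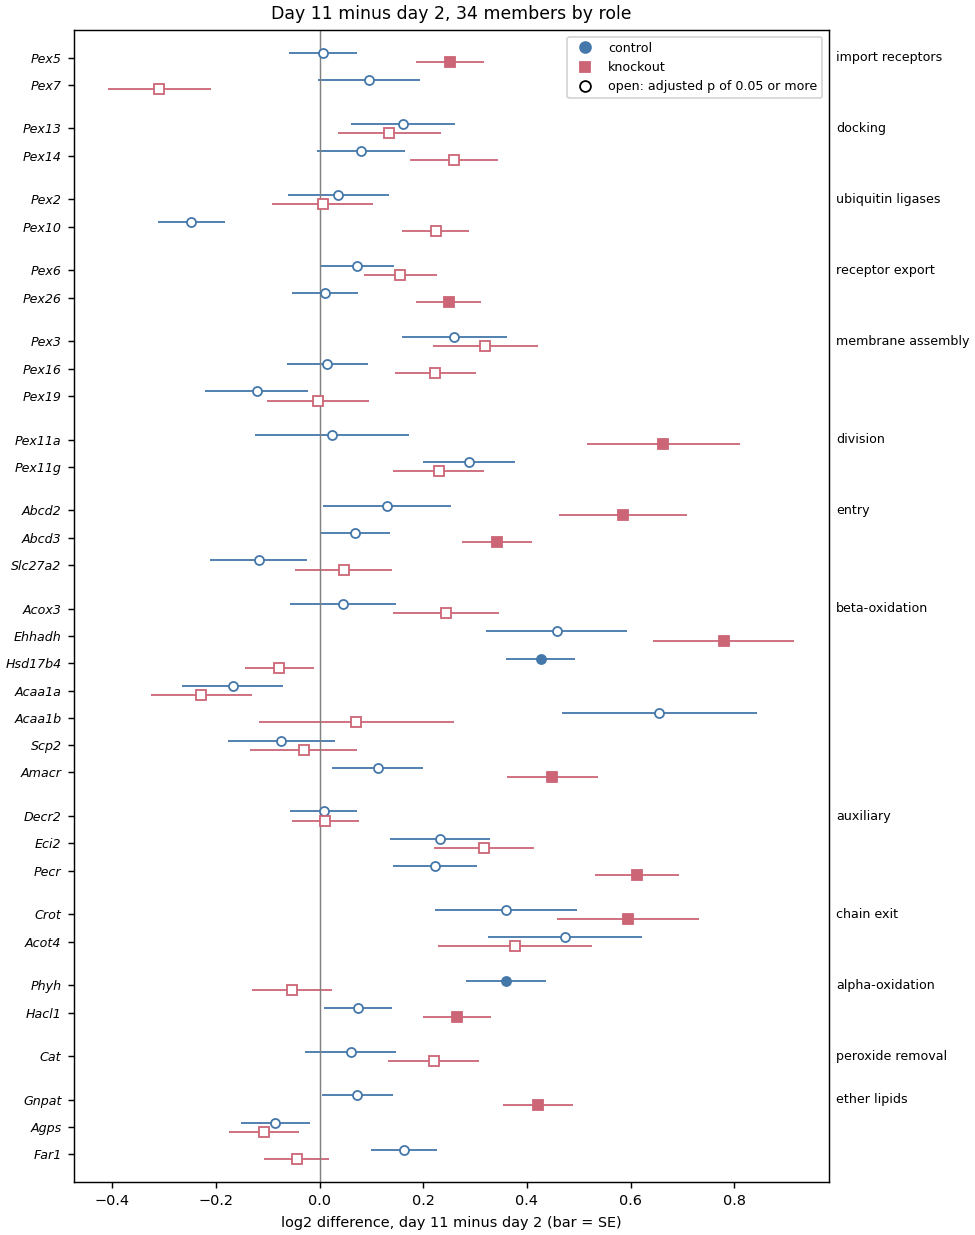
Log2 difference of day 11 minus day 2 (horizontal axis, bars are SE) for the 34 members by role, in controls (blue circles) and knockouts (red squares), open where not called. The 11 filled knockout symbols all lie above 0, from 0.25 to 0.78, and the 2 filled control symbols are Hsd17b4 and Phyh.

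Whether the genotype difference changed with age was tested by the interaction of both factors. It was called for 2 of 34 members (5.88%) against 3.27% of all genes. Over the brighter genes it was called for 1 of 11 Pex genes and 1 of 20 enzymes, against 6.27%, so the members were near the background. Hsd17b4, whose control signal rose while the knockout signal did not, gave -0.51 ± 0.09 (adjusted p = 0.0323), and Pex10 gave 0.47 ± 0.09 (adjusted p = 0.0365). The Hsd17b4 call was lost without any single array (adjusted p from 0.0539 to 0.126), and that of Pex10 without each array in turn except knockout day 2 replicate 2 (adjusted p from 0.0843 to 0.135). For Pex11a the interaction was 0.64, adjusted p = 0.177, for Acaa1b -0.58, adjusted p = 0.32, for Abcd2 0.46, adjusted p = 0.241 and for Phyh -0.41, adjusted p = 0.103. Without knockout day 2 replicate 2 these 4 interactions were 0.84, -0.90, 0.655 and -0.50. The day 2 knockout group then rested on replicate 1 alone, the pool with high interferon response genes. Of the 7 members called at day 2 and not at day 11, namely Abcd2, Abcd3, Eci2, Pecr, Phyh, Hacl1 and Gnpat, none had a called interaction, so a difference between the ages is not shown for them.

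Other peroxisomal genes, from a list of 62 of which 54 were measured, were called mostly lower too. At day 2, 17 were called (31.5%), 15 lower and 2 higher, against 20.1% of all genes (11.2% lower and 8.86% higher). At day 11, 22 were called (40.7%), 14 lower and 8 higher, against 18.6% (9.29% lower and 9.34% higher). These counts were not repeated over the brighter genes, of which 38.2% were called at day 2 and 36.8% at day 11. The widest called differences were those of Pnpla8, a phospholipase, and Xdh, the xanthine oxidoreductase that makes hydrogen peroxide. Pnpla8 read 9.71 and 9.85 for control pools of day 2, 7.90 and 8.15 for their knockout counterparts, 9.94 and 9.96 for control pools of day 11 and 8.55 and 8.25 for day 11 knockout pools. Its difference was -1.76 ± 0.12 (adjusted p = 5.79e-05) on day 2 and, on day 11, -1.55 ± 0.12 (adjusted p = 0.000105). Xdh read 7.85 and 7.74 for control pools of day 2, 9.68 and 9.23 for their knockout counterparts, 6.84 and 7.13 for control pools of day 11 and 8.73 and 8.63 for day 11 knockout pools. It was higher in knockouts by 1.66 ± 0.15 (adjusted p = 0.000211) and 1.69 ± 0.15 (adjusted p = 0.000198). The membrane protein gene Pxmp4 and Ech1, an isomerase for unsaturated chains, were lower at day 2, Pxmp4 at -1.08 ± 0.14 (adjusted p = 0.00117) and Ech1 at -1.05 ± 0.17 (adjusted p = 0.00332), and again at day 11, at -0.69 ± 0.14 (adjusted p = 0.0104) and -0.71 ± 0.17 (adjusted p = 0.0225). The calls of Pnpla8 and Xdh and the day 2 calls of Pxmp4 and Ech1 were kept in every setting. Those of Pxmp4 and Ech1 at day 11 were lost without control day 11 replicate 1 (Pxmp4 0.072, Ech1 0.0614), without control day 11 replicate 2 (0.0504 and 0.135) or without knockout day 11 replicate 2 (0.0675 and 0.0612).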

How the data were processed

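RNA of sorted lung macrophages was measured on 8 Affymetrix arrays. The deposited table holds log2 values which the authors computed with RMA, the submitters' processing notes naming R 2.15.2. RMA corrects background, equalises the distributions of all arrays and summarises each probe set. With a median of 5.35 on every array, a shift of all genes cannot be seen, and the number of arrays limits the precision.

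Of 28874 probe sets, 21159 had 1 symbol in the platform annotation, 1881 several and 5834 none. Entrez identifiers matched the RefSeq table for 21129 and changed no symbol. Genes with several probe sets (1368) took the one with the highest mean, which left 18782 genes. Limma 3.58.1 in R 4.3.3 was fitted with 1 mean per group over 8 arrays (4 residual and 3.77 prior degrees of freedom). Adjusted p-values are limma's after Benjamini-Hochberg adjustment over all genes of a comparison. The script was tested on simulated data. Figures were drawn with matplotlib 3.10.9.

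Members, lists and tests were chosen with earlier results of these data known, so no test was made over a list. Members called with an absolute difference of at least 1 are given on each array (Pex16, Pex11a, Ehhadh, Hsd17b4, Acaa1b and Acot4). Other members given on each array were chosen after their values were seen, and other peroxisomal genes are named past the same size. Alternatives were a replicate block, the mean of probe sets, a filter on dim genes, a trended robust prior, only the groups compared, each array left out and, added after seeing the data, Eif2s3y signal as a sex term. Alternatives left each group with at least 1 array, which was then assumed to vary like the other groups.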

Additional observations from a re-analysis of the deposited data

Results flagged for a closer look

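The interaction of genotype and age was called for Pex10 and Hsd17b4, in neither case in every setting. The Pex10 call was lost in 10 and the Hsd17b4 call in 9 of 13 alternative settings, at adjusted p from 0.055 to 0.135 and adjusted p from 0.0539 to 0.126. For Pex10, knockout minus control was -0.17 at day 2 and 0.30 at day 11, an interaction of 0.47 ± 0.09 (adjusted p = 0.0365). Knockout arrays were below both controls at day 2 and above both at day 11. For Hsd17b4 it was -0.91 and -1.42, an interaction of -0.51 ± 0.09 (adjusted p = 0.0323). The control arrays at day 11 lay above those at day 2, and the knockout arrays at day 11 just below those at day 2.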

How the results depend on the processing

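No called difference of a member reversed in any of the 14 alternative settings. Of 46 called differences of members, 22 kept their call in all settings and 24 lost it in at least one, while 22 of 124 uncalled differences were called in some setting. The replicate numbers did not pair the samples: deviations of same-numbered arrays correlated between -0.0754 and 0.25 over the 6 pairs of groups. A fit with the replicate block took the Pex genes called between ages in knockouts from 3 to 1 and those of the interaction from 1 to 0 (5 at an unadjusted p under 0.05), and left the other counts within 1.5 times. The trended robust prior gave the same 1 and 0 (3 unadjusted). Fitting only the groups compared gave 4 enzymes between ages in controls in place of 2, and in knockouts 5 enzymes in place of 8 and 0 Pex genes (8 unadjusted), and does not apply to the interaction, which needs all groups. The sex term gave 8 enzymes in place of 13 at day 2, 2 enzymes and 0 Pex genes (3 unadjusted) between ages in knockouts, and 0 in the interaction for Pex genes (4 unadjusted) and enzymes (5 unadjusted). Eif2s3y, the signal of that term, differed most within a group between the day 2 knockouts (4.05 in replicate 1 and 8.19 in replicate 2). Replicate 1 is also the pool with high interferon response genes, so the sex term cannot be cleanly told apart from that pool. The cause of these changes in count was not tested. Leaving out single arrays gave 8 to 12 enzymes at day 2, 4 to 7 Pex genes and 7 to 10 enzymes at day 11, 0 to 3 enzymes between ages in controls, 0 to 3 Pex genes and 4 to 9 enzymes between ages in knockouts, and 0 to 2 Pex genes and 0 to 3 enzymes in the interaction. The 3 Pex genes of day 2 and the 0 of the control ages were the count in all of these fits.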

Other observations

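Receptors and coactivators of the PPAR family showed no called difference of 2-fold. Of 14 measured, 7 were called at day 2, 5 lower and 2 higher, against 20.1% of all genes, and 3 at day 11, 2 lower and 1 higher, against 18.6%. Among the brighter genes 38.2% and 36.8% were called, and the receptor counts were not repeated there. Nrip1, a corepressor of nuclear receptors in lipid metabolism, was lower at both ages (-0.70 ± 0.11, adjusted p = 0.00315, and -0.57 ± 0.11, adjusted p = 0.00856), and Ncoa3, a coactivator, was higher (0.35 ± 0.06, adjusted p = 0.00493, and 0.32 ± 0.06, adjusted p = 0.00786). At day 11 the Nrip1 call was lost without control day 11 replicate 2 (adjusted p = 0.0618) and that of Ncoa3 without control day 11 replicate 1 (adjusted p = 0.0625). Ppara, the family member best known for driving peroxisomal genes in liver, was dim on all 8 arrays (4.10 to 4.34) and not called.

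Nos2, the inducible nitric oxide synthase, which can be found at peroxisomes, was at 9.76 in knockout day 2 replicate 1, at 4.77 in its fellow replicate and at 4.28 to 5.33 on the 6 control and day 11 arrays. Replicate 1 is the pool with the high interferon response genes.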
